A study of Rattus norvegicus with 18 samples.

Results

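Phospholipases A2, C and D are the enzymes that cut membrane phospholipids, and 40 of the 22081 genes in the tables are described here. They were taken by name: every Pla2g, Plcb, Plcd, Plce, Plch, Plcl, Plcz and Pld gene whose name goes on with a number, and Plcg1. Plcg2, another phospholipase C gene, was not among the 40 and is given with the partner genes below. Lung RNA was sequenced from 18 male F344 rats (F344/DuCrlCrlj), 3 in each of 6 groups. MWNT-7, a long and rigid multi-walled carbon nanotube, was instilled into the trachea of the MWCNT-treated rats at 0.5 mg/kg every 4 weeks from 9 weeks of age. Control rats received the vehicle, saline with Tween 80 (0 mg/kg), on the same schedule. The time points are named Year 0.5, Year 1 and, at the end, Year 2, so the rats of a later time point were also older and, in the treated groups, had received more doses. Each library came from a small piece of the accessory lobe of 1 rat, and tissue with tumour nodules was left out by the study. The rats of a time point were compared with the time-matched controls.

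Phospholipases A2 release a fatty acid, often arachidonic acid, and a lysophospholipid; secreted forms act outside the cell, and cytosolic forms (group IV) on internal membranes. Phospholipases C split phosphoinositides into inositol trisphosphate and diacylglycerol, the messengers that raise calcium and switch on protein kinase C. Phospholipases D make phosphatidic acid, although Pld3 and Pld4 are known as lysosomal exonucleases in spite of their names. In the lung these enzymes act on the surfactant lipids that line the alveoli and on the membranes of immune and airway cells.

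Library depth was 13297643 to 17868851 counted reads in the control rats and 14661589 to 21130757 in the MWCNT-treated rats. Levels below are in TPM, a measure of transcript abundance that is corrected for gene length and depth, whereas log2 fold changes and their standard errors (SE) come from counts scaled with TMM factors, which remove differences in overall composition. A gene was called upregulated or downregulated at a false discovery rate (FDR) under 0.05 over all genes tested and an absolute log2 fold change above 1. Summed levels of marker genes of other cell types moved as well. The macrophage markers summed to 362 to 401 TPM in control and 923 to 1063 TPM in MWCNT-treated rats at Year 0.5, and to 352 to 407 and 1307 to 1405 TPM at Year 2, with 7, 6 and 8 of 10 markers upregulated at the 3 years and 1 downregulated at Year 1. At Year 1 the macrophage sums were 432 to 444 TPM in control and 1015 to 1176 TPM in MWCNT-treated rats. Alveolar type 2 markers summed to 27780 to 31510 TPM in control and 51420 to 55670 TPM in MWCNT-treated rats at Year 2, with 4 of 7 upregulated. At Years 0.5 and 1 their sums were 30440 to 33990 and 35660 to 36800 TPM in control rats. Those of the treated rats were 56840 to 59160 and 59330 to 61130 TPM, with 3 of 7 upregulated at each year. Endothelial markers summed to 2046 to 2466 TPM in control and 629 to 908 TPM in MWCNT-treated rats at Year 2, with 4 of 5 tested downregulated. No macrophage, alveolar type 2 or endothelial marker in the tables was at 0 in all control rats. Neutrophil markers also summed higher at each year, and markers of T cells, alveolar type 1, club, ciliated and tuft cells, smooth muscle and fibroblasts lower. Of the 5 neutrophil markers, 1, 2 and 2 were upregulated at the 3 years and 0 were downregulated. Their median log2 fold changes were only 0.058, 0.35 and 0.38. The B or plasma cell sum was higher at Years 0.5 and 1 and overlapped at Year 2. Most of its 6 markers went lower, with median log2 fold changes of -0.89, -0.45 and -0.59. Of them 1 was upregulated at each year, and 2, 0 and 2 were downregulated. The mast cell sum was lower at Years 0.5 and 1 and higher at Year 2. Of the mast cell markers tested, 1 of 3, 3 of 4 and 4 of 5 were upregulated and 1, 0 and 1 downregulated. Their median log2 fold changes were 0.996, 2.80 and 4.16. The heart muscle sum was lower at Year 0.5, then overlapped, ranging from 67.8 to 541 TPM among the control rats of Year 2. In bulk tissue a change in the number of cells of a type and a change in RNA per cell cannot be told apart, and the part of these shifts in the results below was not tested.

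MWCNT treatment was accompanied by higher RNA levels of several phospholipases A2 and D and by lower levels of particular phospholipases C. Enough counts for a test were found in 30 of the 40 genes for Year 0.5, in 28 for Year 1 and in 29 for Year 2, and 28 genes were tested throughout. At Year 0.5, 6 were upregulated and 1 was downregulated, where 9.1% of the 14315 genes tested were called (6.07% up, 3.03% down). Year 1 gave 5 upregulated and 1 downregulated against 10.2% of 14345 genes (6.13% up, 4.09% down). Year 2 gave 10 upregulated and 3 downregulated against 16.4% of 14361 genes (8.17% up, 8.22% down). The median log2 fold change of the tested genes was 0.21, 0.14 and 0.37 at the 3 years, where that of all genes tested was -0.021, 0.00053 and -0.011. At FDR alone, 20 passed at Year 0.5 (12 higher and 8 lower), where 38.8% of all genes did (20.2% higher, 18.6% lower). For Year 1 it was 18 (11 and 7) against 41.2% (21.6% and 19.6%), and for Year 2 22 (15 and 7) against 49.2% (25.2% and 24%). After TMM scaling, treated and control rats did not overlap in 22, 19 and 23 of the tested genes at Years 0.5, 1 and 2, where 51.6%, 54.9% and 59.9% of all genes did not. Some low genes, Pla2g4e and Pla2g4f among them, entered the test through their counts in treated rats, so these counts are a description of the tested genes and not of all 40.

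**Figure D1:**
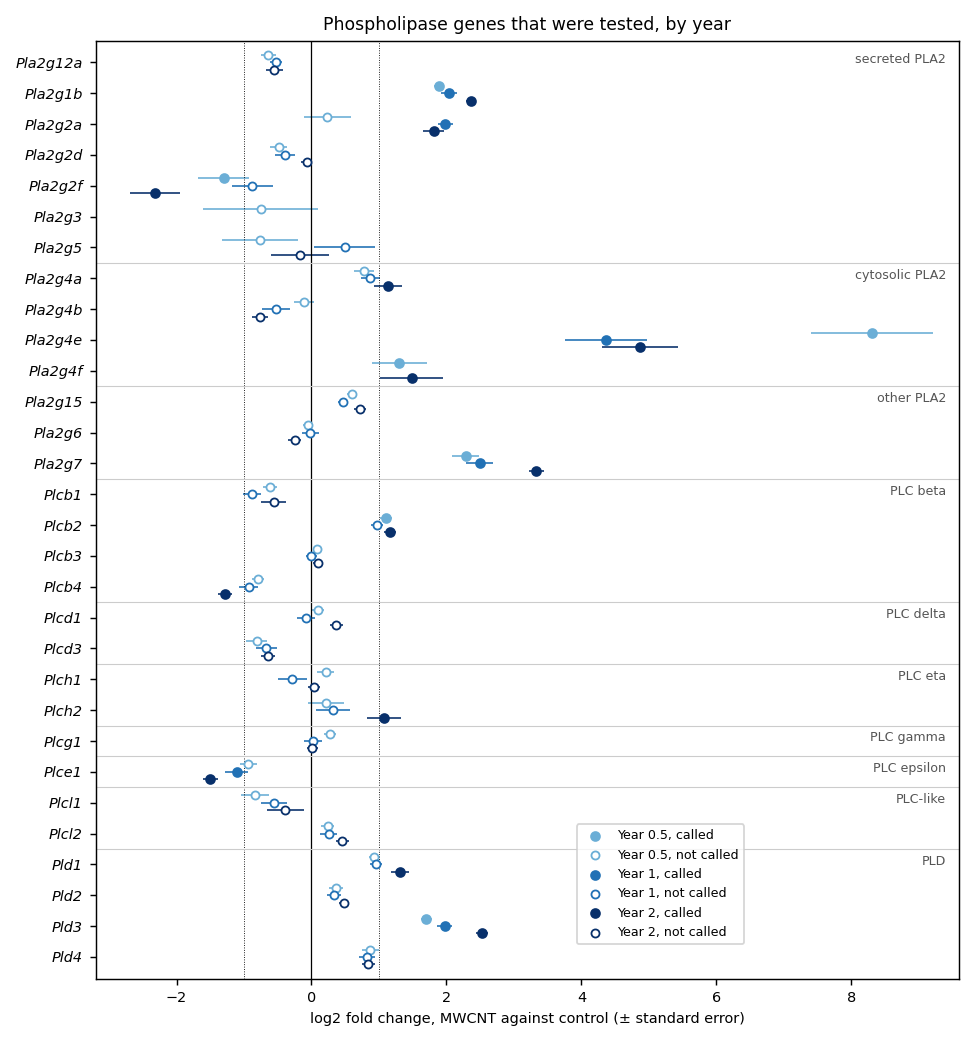
Log2 fold change (MWCNT-treated against control, x axis, ± SE from edgeR) of each tested phospholipase gene (y axis, grouped by subfamily), with 1 colour a year. Filled points were called (FDR under 0.05 and absolute log2 fold change above 1, dotted lines), open points were not. Pla2g1b, Pla2g7 and Pld3 lie to the right at each year, and Plcb4 and Plce1 to the left. The point of Pla2g4e at Year 0.5 depends on the prior count, since its control rats had no reads.

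Across the 3 years 13 genes were called at least once, and the matching share of all genes was not counted. Pla2g1b, Pla2g4e, Pla2g7 and Pld3 were upregulated at every year, where 762 of the 14108 genes tested at all years (5.4%) were called at all 3 in 1 direction. Among them, Pla2g4e entered the test only through its counts in treated rats. Pla2g4a, Plcb4, Plch2 and Pld1 were called at Year 2 alone. Of all genes tested, 16.4% were called at Year 2, but this includes genes also called earlier. The share of all genes called at Year 2 alone was not counted. At FDR alone 10 genes were higher at every year (Pla2g1b, Pla2g4a, Pla2g4e, Pla2g7, Pla2g15, Plcb2, Pld1, Pld2, Pld3 and Pld4) and 6 were lower (Pla2g2f, Pla2g12a, Plcb1, Plcb4, Plcd3 and Plce1). Of all genes tested at the 3 years, 14.8% were higher and 12.2% lower by the same rule. With library size alone in place of TMM factors no sign among the genes past the FDR changed, but Pld2 was lost at Years 0.5 and 1, Plcg1 at Year 0.5 and Plcd1 at Year 2. That scaling moved the median of all genes by -0.10, -0.13 and -0.17 on the log2 scale at the 3 years.

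The sequences just upstream of 4 of these genes are shown because the genes stand for the main directions in the data: the abundant secreted, plasma and lysosomal enzymes that rose at every year (Pla2g1b, Pla2g7 and Pld3) and a phospholipase C that fell (Plcb4). Each runs 5′ to 3′ over the 250 bases before the annotated start in RefSeq (rat build GRCr8), with capitals marking the matches on either strand to 6 motifs. The motifs are a TATA box spelled as TATAAA, and a GC box spelled as GGGCGG. Another is the box named for its letters, CCAAT. The others are the AP-1 site written as TGANTCA and the E-box taken as CACGTG, and the PU.1 site searched for as GAGGAAG. Overlapping matches were each counted.
Pla2g1b: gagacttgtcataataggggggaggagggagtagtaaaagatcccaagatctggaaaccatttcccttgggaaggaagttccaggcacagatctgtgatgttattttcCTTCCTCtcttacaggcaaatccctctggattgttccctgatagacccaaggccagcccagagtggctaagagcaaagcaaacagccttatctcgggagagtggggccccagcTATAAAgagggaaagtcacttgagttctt
Pla2g7: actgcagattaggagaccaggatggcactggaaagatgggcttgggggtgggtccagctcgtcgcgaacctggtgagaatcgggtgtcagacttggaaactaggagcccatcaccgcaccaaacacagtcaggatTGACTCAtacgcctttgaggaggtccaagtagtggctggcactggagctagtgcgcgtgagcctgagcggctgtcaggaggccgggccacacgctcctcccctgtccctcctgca
Pld3: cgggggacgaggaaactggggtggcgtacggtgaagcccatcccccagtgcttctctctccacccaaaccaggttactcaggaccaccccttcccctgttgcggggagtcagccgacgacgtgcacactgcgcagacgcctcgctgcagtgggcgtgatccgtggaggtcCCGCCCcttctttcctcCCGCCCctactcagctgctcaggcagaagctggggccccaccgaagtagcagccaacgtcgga
Plcb4: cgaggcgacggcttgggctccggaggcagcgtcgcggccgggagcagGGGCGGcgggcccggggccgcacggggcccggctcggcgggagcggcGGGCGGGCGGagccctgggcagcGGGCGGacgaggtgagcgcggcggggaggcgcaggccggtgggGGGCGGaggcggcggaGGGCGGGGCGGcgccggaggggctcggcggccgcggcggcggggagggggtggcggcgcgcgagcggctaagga
The windows are chr12:46812654-46812903, minus strand, 48.8% G or C for Pla2g1b, chr9:24901748-24901997, minus strand, 60% G or C for Pla2g7, chr1:91961208-91961457, minus strand, 65.6% G or C for Pld3 and chr3:143405723-143405972, plus strand, 86.4% G or C for Plcb4. They differ in composition: Pla2g1b holds a TATA box at base 222 of the window and a PU.1 match, Pla2g7 an AP-1 match and neither a TATA nor a GC box, Pld3 2 GC boxes, and Plcb4 7 GC boxes. Among all 33469 windows of this length, 12.9% held the TATA letters, 30.5% the GC box, 10.2% the PU.1 letters and 6.34% the AP-1 letters. Of the 39 windows of the 34 phospholipase genes matched by symbol, 4 held the TATA letters, 15 the GC box, 12 a CCAAT box, 5 an E-box, 4 the PU.1 letters and 3 the AP-1 letters, where CCAAT and the E-box stood in 34% and 5.59% of all windows. Such a match is a run of letters and says nothing of binding. Pla2g4e, which was also upregulated at every year, has several annotated windows and is not shown, and Plce1, which also fell, was not matched by symbol.

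Among the secreted phospholipases A2, Pla2g1b rose the most in absolute level and Pla2g2f fell. Pla2g1b encodes the enzyme best known from pancreatic juice (Rnor_6.0 chr12:46879343-46889082, minus strand). Pla2g1b measured 213, 250.1 and 238 TPM in the control rats of Year 0.5, 288, 216 and 264 TPM in those of Year 1 and 224, 244 and 270.1 TPM in those of Year 2. Pla2g1b in the MWCNT-treated rats was at 758, 773 and 808 TPM at Year 0.5, 902, 906 and 861 TPM at Year 1 and 1076, 1075 and 1123 TPM at Year 2. All treated rats lay above all control rats at every year, and the control rats of the 3 years overlapped each other. Alveolar type 2 and macrophage markers, given above, also summed higher at each year, and their part in the rise of Pla2g1b was not tested. Pla2g1b had log2 fold changes of 1.88 ± 0.074 at Year 0.5, 2.03 ± 0.12 at Year 1 and 2.37 ± 0.075 at Year 2 (± SE), with edgeR FDRs of 2.68e-06, 6e-06 and 1.56e-07. It was the most abundant of the 40 genes in each of the 6 groups. Its share of the summed TPM of the 11 secreted genes was 50.7% ± 1.78 (SD, n = 3) in control and 83.5% ± 1.46 in MWCNT-treated rats at Year 0.5, and 50.4% ± 1.23 and 82.0% ± 2.00 at Year 2.

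Pla2g2a, the inflammatory group IIA enzyme that attacks bacterial membranes, was upregulated at Years 1 and 2. Pla2g2a measured 11.9, 20.7 and 28.5 TPM in the control rats of Year 0.5, 15.99, 17.7 and 18.9 TPM in those of Year 1 and 20.6, 22.9 and 26.7 TPM in those of Year 2. Pla2g2a in the MWCNT-treated rats was at 12.98, 21.4 and 30.5 TPM at Year 0.5, 67.5, 52.1 and 57.9 TPM at Year 1 and 56.9, 85.1 and 69.5 TPM at Year 2. The groups overlapped at Year 0.5 and were fully apart at Years 1 and 2. Pla2g2a had log2 fold changes of 0.24 ± 0.35 at Year 0.5, 1.99 ± 0.12 at Year 1 and 1.81 ± 0.15 at Year 2 (± SE), with edgeR FDRs of 0.626, 5.69e-06 and 1.66e-05.

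Pla2g2f, a secreted enzyme known from skin, went the other way at a low level. Pla2g2f measured 2.77, 2.62 and 1.42 TPM in the control rats of Year 0.5, 3.33, 2.53 and 3.24 TPM in those of Year 1 and 5.51, 9.94 and 6.96 TPM in those of Year 2. Pla2g2f in the MWCNT-treated rats was at 0.701, 0.764 and 1.03 TPM at Year 0.5, 1.19, 1.17 and 1.86 TPM at Year 1 and 1.15, 0.776 and 1.93 TPM at Year 2. Each treated group lay below its controls, and the widest gap, at Year 2, came together with the highest control values. Pla2g2f had log2 fold changes of -1.30 ± 0.38 at Year 0.5, -0.88 ± 0.30 at Year 1 and -2.32 ± 0.37 at Year 2 (± SE), with edgeR FDRs of 0.0237, 0.0444 and 0.000756. The call at Year 0.5 rests on 15 to 33 counts a control library and 8 to 12 a treated one, and its FDR was 0.0975 without control rat 1, 0.07 without control rat 2, 0.0806 without MWCNT-treated rat 1 and 0.0893 without MWCNT-treated rat 2. At Year 1 its log2 fold change was -1.11 without MWCNT-treated rat 3, which would have been a call.

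The remaining secreted genes changed less or were scarce. Pla2g2d, known from lymphoid tissue and the second most abundant phospholipase gene of the control groups, had log2 fold changes of -0.48 ± 0.13, -0.40 ± 0.15 and -0.072 ± 0.080 (SE) at the 3 years, and only that of Year 0.5 passed the FDR (0.0157, edgeR). Pla2g12a was lower at each year at FDR alone, with log2 fold changes of -0.64 ± 0.11, -0.53 ± 0.091 and -0.55 ± 0.12. Pla2g5 and, at the 1 year it was tested, Pla2g3 did not pass the FDR. Pla2g2c, Pla2g2e, Pla2g10 and Pla2g12b were not tested at any year. Summed over the 11 genes, the secreted enzymes reached 461 ± 23.4 TPM (SD, n = 3) in control and 933 ± 16.4 TPM in MWCNT-treated rats at Year 0.5, 494 ± 28.6 and 1090.0 ± 32.2 TPM at Year 1, and 488 ± 41.2 and 1331 ± 38.7 TPM at Year 2, or 2.03, 2.21 and 2.73 times the control level.

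**Figure D2:**
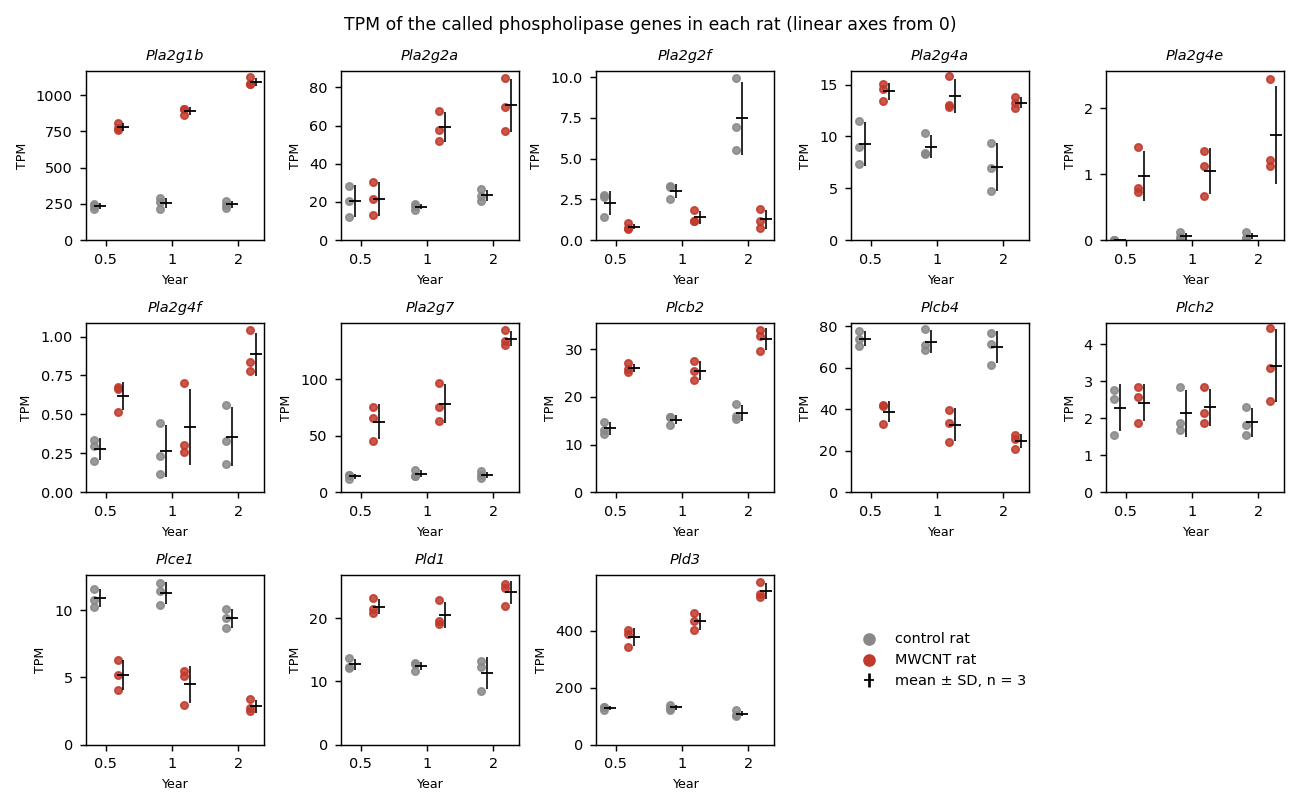
TPM (y axes, linear from 0) by time point (x axes, Year 0.5, 1 and 2) of the 13 phospholipase genes called in at least 1 year, with 1 point a rat, grey for control and red for MWCNT-treated, and the mean ± SD (n = 3) beside each group. The treated rats lie above the controls at every year in the panels of Pla2g1b, Pla2g4a, Pla2g4e, Pla2g7, Plcb2, Pld1 and Pld3 and below in those of Pla2g2f, Plcb4 and Plce1, and Pla2g2a separates only at Years 1 and 2.

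Of the cytosolic group IV enzymes, Pla2g4a and Pla2g4e rose, and Pla2g4b was lower at Year 2 at FDR alone. Pla2g4a encodes the enzyme that frees arachidonic acid from internal membranes when calcium rises. Pla2g4a measured 8.97, 7.296 and 11.5 TPM in the control rats of Year 0.5, 8.34, 10.3 and 8.39 TPM in those of Year 1 and 6.996, 4.72 and 9.41 TPM in those of Year 2. Pla2g4a in the MWCNT-treated rats was at 14.5, 15.1 and 13.4 TPM at Year 0.5, 12.8, 15.8 and 13.1 TPM at Year 1 and 13.2, 13.8 and 12.8 TPM at Year 2. The treated rats lay above the controls at every year. Pla2g4a had log2 fold changes of 0.78 ± 0.15 at Year 0.5, 0.87 ± 0.14 at Year 1 and 1.13 ± 0.21 at Year 2 (± SE), with edgeR FDRs of 0.00346, 0.00137 and 0.0017. The call at Year 2 was the only one, and without control rat 2, the lowest control of that year, the log2 fold change was 0.90 (FDR = 0.0015, edgeR), below the fold limit. With library size alone it was 0.96.

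Pla2g4e, known for making N-acyl phosphatidylethanolamines, was close to absent from control lungs. Pla2g4e measured 0, 0 and 0 TPM in the control rats of Year 0.5, 0, 0.117 and 0.0494 TPM in those of Year 1 and 0.0297, 0.116 and 0.03202 TPM in those of Year 2. Pla2g4e in the MWCNT-treated rats was at 0.794, 1.41 and 0.727 TPM at Year 0.5, 0.663, 1.12 and 1.35 TPM at Year 1 and 1.22, 2.45 and 1.13 TPM at Year 2. In counts, the control rats had 0, 0 and 0 reads at Year 0.5, 0, 4 and 2 at Year 1 and 1, 4 and 1 at Year 2, and the treated rats 29, 71 and 27, 25, 49 and 51, and 44, 101 and 43. The groups did not overlap at any year. Its level was at least 12.5-fold higher at Year 0.5, against a floor of 3 counts in each control library. The ratio of summed counts, scaled for depth, was 21.9 (exact 95% interval 9.79 to 60.9, for counting error alone) at Year 1 and 31.1 (14.0 to 85.9) at Year 2. The edgeR FDRs were 0.000539, 0.000657 and 0.000115.

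Pla2g4f, a related gene at the edge of detection, had 3 to 10 counts in the control libraries of Years 0.5 and 2 and 10 to 21 in the treated ones. Pla2g4f measured 0.199, 0.298 and 0.335 TPM in the control rats of Year 0.5, 0.119, 0.444 and 0.233 TPM in those of Year 1 and 0.561, 0.3296 and 0.182 TPM in those of Year 2. Pla2g4f in the MWCNT-treated rats was at 0.518, 0.677 and 0.662 TPM at Year 0.5, 0.301, 0.259 and 0.699 TPM at Year 1 and 0.837, 0.7798 and 1.04 TPM at Year 2. The groups were apart at Years 0.5 and 2 and overlapped at Year 1, when it was not tested. Its log2 fold change was 1.30 ± 0.41 at Year 0.5 (FDR = 0.0315, edgeR) and 1.49 ± 0.47 at Year 2 (FDR = 0.026). Neither call was firm: without any 1 of the 6 rats of Year 0.5 the FDR was 0.0584 to 0.121, and at Year 2 it was 0.0503 to 0.0855 without control rat 2, control rat 3 or any treated rat. Pla2g4b was lower at Year 2 at FDR alone, with a log2 fold change of -0.77 ± 0.12 (SE), and the level of Pla2g4b in control rats was higher at Year 2 than at Year 0.5, by 0.71 ± 0.18 on the log2 scale (FDR = 0.0266). Pla2g4c and Pla2g4d were not tested at any year. The summed level of the 6 genes was 1.29, 1.14 and 1.08 times the control at the 3 years, and at Year 2 the groups overlapped.

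Of the 3 remaining phospholipases A2, Pla2g7 rose steeply. It encodes the lipoprotein-associated platelet-activating factor acetylhydrolase, an enzyme that degrades platelet-activating factor and oxidised phospholipids and is made by macrophages (Rnor_6.0 chr9:19935768-19978013, minus strand). Pla2g7 measured 11.8, 15.7 and 15.3 TPM in the control rats of Year 0.5, 14.8, 14.6 and 19.98 TPM in those of Year 1 and 13.1, 15.7 and 18.4 TPM in those of Year 2. Pla2g7 in the MWCNT-treated rats was at 66.03, 75.3 and 45.7 TPM at Year 0.5, 62.8, 96.9 and 75.1 TPM at Year 1 and 143, 133 and 130.4 TPM at Year 2. Treated rats lay well above controls at each year, and all 3 treated rats of Year 2 lay above every treated rat of the earlier years. Pla2g7 had log2 fold changes of 2.28 ± 0.20 at Year 0.5, 2.49 ± 0.20 at Year 1 and 3.33 ± 0.11 at Year 2 (± SE), with edgeR FDRs of 6.02e-05, 3.46e-05 and 1.94e-07. Pla2g7 took 14.9% ± 2.52 (SD, n = 3) of the summed TPM of Pla2g6, Pla2g7 and Pla2g15 in the control rats of Year 2 and 54.0% ± 1.64 in the treated ones.

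Pla2g15, the lysosomal enzyme that degrades phospholipids at acid pH, made up most of this set in control rats. Pla2g15 measured 64.5, 75.7 and 74.1 TPM in the control rats of Year 0.5, 87.2, 81.8 and 85.01 TPM in those of Year 1 and 78.5, 66.7 and 72.5 TPM in those of Year 2. Pla2g15 in the MWCNT-treated rats was at 97.9, 96.7 and 97.8 TPM at Year 0.5, 98.6, 99.2 and 100.1 TPM at Year 1 and 101, 107 and 102 TPM at Year 2. The groups were apart at every year by less than the fold limit. Pla2g15 had log2 fold changes of 0.59 ± 0.072 at Year 0.5, 0.47 ± 0.074 at Year 1 and 0.72 ± 0.086 at Year 2 (± SE), with edgeR FDRs of 0.000333, 0.00127 and 0.000142. Pla2g6, the calcium-independent enzyme, did not pass the FDR at any year, with log2 fold changes of -0.048 ± 0.076, -0.016 ± 0.13 and -0.25 ± 0.095 (SE). Macrophage markers, given above, summed higher at the same years as Pla2g7, Pla2g15 and the genes Plcb2 and Pld3 described below, and their part in these rises was not tested.

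Phospholipase C beta enzymes, which respond to G protein-coupled receptors, moved in opposite directions within 1 subfamily. Plcb4 was the most abundant of the 4 in control lungs (Rnor_6.0 chr3:128756799-128971746, plus strand). Plcb4 measured 77.4, 73.8 and 70.2 TPM in the control rats of Year 0.5, 68.3, 78.7 and 70.8 TPM in those of Year 1 and 61.4, 76.7 and 71.5 TPM in those of Year 2. Plcb4 in the MWCNT-treated rats was at 41.6, 32.9 and 41.9 TPM at Year 0.5, 39.9, 24.1 and 33.5 TPM at Year 1 and 20.9, 27.8 and 25.4 TPM at Year 2. Treated rats lay below controls at each year, and their values at Year 2 ran from 21.0 to 27.8 TPM. Plcb4 had log2 fold changes of -0.79 ± 0.091 at Year 0.5, -0.93 ± 0.14 at Year 1 and -1.28 ± 0.10 at Year 2 (± SE), with edgeR FDRs of 0.000261, 0.000865 and 1.18e-05. It missed the fold limit at Year 1, when its log2 fold change without MWCNT-treated rat 1 was -1.09.

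Plcb2, the form known from blood cells, rose. Plcb2 measured 13.1, 14.8 and 12.2 TPM in the control rats of Year 0.5, 15.8, 14.1 and 15.7 TPM in those of Year 1 and 15.9, 18.4 and 15.3 TPM in those of Year 2. Plcb2 in the MWCNT-treated rats was at 25.2, 25.8 and 27.00 TPM at Year 0.5, 27.4, 23.4 and 25.4 TPM at Year 1 and 29.6, 32.7 and 34.00 TPM at Year 2. The groups were apart at each year. Plcb2 had log2 fold changes of 1.10 ± 0.088 at Year 0.5, 0.98 ± 0.087 at Year 1 and 1.17 ± 0.088 at Year 2 (± SE), with edgeR FDRs of 3.73e-05, 5.78e-05 and 9.47e-06. It missed the fold limit at Year 1 by little, at 1.02 without control rat 1, and with library size alone its log2 fold change at Year 2 was 0.998. Plcb1 was lower at each year at FDR alone, at -0.61 ± 0.11, -0.88 ± 0.13 and -0.56 ± 0.18, while Plcb3 did not pass the FDR at any year, at 0.086 ± 0.063, -0.0011 ± 0.080 and 0.091 ± 0.063 (log2, ± SE). The make-up of the subfamily differed accordingly: at Year 2 Plcb4 was 51.1% ± 1.97 (SD, n = 3) of its summed TPM in control and 24.5% ± 2.16 in treated rats, and Plcb2 was 12.2% ± 0.78 and 31.9% ± 1.06. The sum of the 4 genes was 0.81, 0.71 and 0.74 times the control level at the 3 years and did not overlap with it.

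Plce1, an enzyme that also answers to Ras-family GTPases, fell as Plcb4 did (Rnor_6.0 chr1:257157264-257466064, plus strand). Plce1 measured 10.3, 10.8 and 11.6 TPM in the control rats of Year 0.5, 10.4, 11.5 and 12.1 TPM in those of Year 1 and 8.67, 9.45 and 10.1 TPM in those of Year 2. Plce1 in the MWCNT-treated rats was at 5.16, 4.09 and 6.28 TPM at Year 0.5, 5.09, 2.92 and 5.47 TPM at Year 1 and 2.48, 2.69 and 3.41 TPM at Year 2. The groups were apart at each year. Plce1 had log2 fold changes of -0.94 ± 0.13 at Year 0.5, -1.11 ± 0.17 at Year 1 and -1.50 ± 0.11 at Year 2 (± SE), with edgeR FDRs of 0.000671, 0.00126 and 9.36e-06. At Year 0.5 it was not called, but the log2 fold change was -1.07 without MWCNT-treated rat 3 and -1.04 with library size alone. The call at Year 1 turned on 1 rat, at -0.91 without MWCNT-treated rat 2. Endothelial markers summed lower at each year, as Plcb4 and Plce1 did, with 2 and 1 of 5 downregulated at Years 0.5 and 1 beside the 4 at Year 2 given above, and their part in the fall was not tested.

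Plch2, a phospholipase C eta known from brain, was called at Year 2 alone. Plch2 measured 2.53, 1.56 and 2.77 TPM in the control rats of Year 0.5, 1.88, 1.68 and 2.85 TPM in those of Year 1 and 1.54, 1.81 and 2.31 TPM in those of Year 2. Plch2 in the MWCNT-treated rats was at 2.57, 1.87 and 2.83 TPM at Year 0.5, 2.15, 1.89 and 2.85 TPM at Year 1 and 2.46, 4.43 and 3.36 TPM at Year 2. The groups overlapped at Years 0.5 and 1 and were apart at Year 2, with the lowest treated rat just above the highest control. Plch2 had log2 fold changes of 0.21 ± 0.26 at Year 0.5, 0.32 ± 0.25 at Year 1 and 1.07 ± 0.25 at Year 2 (± SE), with edgeR FDRs of 0.549, 0.327 and 0.00676. Without control rat 1 of Year 2 the log2 fold change was 0.97, without MWCNT-treated rat 2 it was 0.85, and with library size alone it was 0.91. Its effect at Year 2 was not shown to differ from that at Year 0.5 (difference 0.87 ± 0.38 on the log2 scale, SE, edgeR FDR = 0.319). Plch1, the more abundant eta gene, did not pass the FDR. Plch1 measured 7.85, 6.37 and 7.81 TPM in the control rats of Year 0.5, 6.51, 9.36 and 10.3 TPM in those of Year 1 and 7.88, 7.06 and 7.93 TPM in those of Year 2. Plch1 in the MWCNT-treated rats was at 7.29, 6.77 and 9.14 TPM at Year 0.5, 6.73, 4.11 and 7.64 TPM at Year 1 and 6.42, 6.75 and 7.01 TPM at Year 2. On the TPM scale the treated rats of Year 2 lay just below their controls, whereas after TMM scaling the groups overlapped, with a log2 fold change of 0.034 ± 0.092 (SE).

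Plcg1, the form activated by receptor tyrosine kinases, was among the 3 most abundant phospholipase genes in each group. Plcg1 measured 156, 162 and 161 TPM in the control rats of Year 0.5, 154, 180.3 and 195 TPM in those of Year 1 and 164, 195 and 179 TPM in those of Year 2. Plcg1 in the MWCNT-treated rats was at 153, 169 and 202 TPM at Year 0.5, 174, 116 and 170.0 TPM at Year 1 and 155, 144 and 168 TPM at Year 2. The TPM of the groups overlapped at every year, whereas after TMM scaling the treated rats of Year 0.5 lay above their controls. Plcg1 had log2 fold changes of 0.27 ± 0.094 at Year 0.5, 0.023 ± 0.13 at Year 1 and 0.011 ± 0.084 at Year 2 (± SE), with edgeR FDRs of 0.046, 0.903 and 0.923. The small difference at Year 0.5 was lost with library size alone.

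Plcd1, a calcium-activated form, was the more abundant delta gene. Plcd1 measured 23.2, 23.2 and 27.6 TPM in the control rats of Year 0.5, 23.9, 33.3 and 30.7 TPM in those of Year 1 and 22.5, 27.6 and 21.97 TPM in those of Year 2. Plcd1 in the MWCNT-treated rats was at 22.8, 23.4 and 25.5 TPM at Year 0.5, 20.8, 22.7 and 26.8 TPM at Year 1 and 26.6, 26.8 and 26.8 TPM at Year 2. Its TPM overlapped between groups at each year, whereas after TMM scaling the treated rats of Year 2 lay above their controls. Plcd1 had log2 fold changes of 0.099 ± 0.089 at Year 0.5, -0.085 ± 0.13 at Year 1 and 0.37 ± 0.095 at Year 2 (± SE), with edgeR FDRs of 0.41, 0.628 and 0.0106. Plcd3 was lower at each year at FDR alone, with log2 fold changes of -0.81 ± 0.16, -0.67 ± 0.16 and -0.64 ± 0.10 (SE). The summed TPM of the 3 delta genes was 0.84, 0.73 and 0.91 times the control, but as TMM-adjusted CPM it was 1.04 times the control at Year 2, so that year has no settled direction.

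Plcl2, 1 of the 2 phospholipase C-like proteins that lack enzyme activity, varied little. Plcl2 measured 9.796, 9.44 and 9.34 TPM in the control rats of Year 0.5, 9.53, 9.64 and 9.55 TPM in those of Year 1 and 9.24, 8.603 and 10.2 TPM in those of Year 2. Plcl2 in the MWCNT-treated rats was at 9.6, 11.1 and 9.75 TPM at Year 0.5, 8.496, 10.7 and 9.72 TPM at Year 1 and 11.3, 11.2 and 10.7 TPM at Year 2. On the TPM scale the groups were apart at Year 2 alone, and after TMM scaling they were also apart at Year 0.5. Plcl2 had log2 fold changes of 0.24 ± 0.098 at Year 0.5, 0.25 ± 0.12 at Year 1 and 0.46 ± 0.10 at Year 2 (± SE), with edgeR FDRs of 0.082, 0.127 and 0.00479. Plcl1 had log2 fold changes of -0.84 ± 0.21, -0.55 ± 0.19 and -0.39 ± 0.27 (SE), and those of Years 0.5 and 1 passed the FDR. Plcz1, the sperm factor, was listed at 0 TPM in every rat of Year 2 and reached at most 0.139 TPM in any rat. Plcd4 and Plcz1 were not tested at any year.

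**Figure D3:**
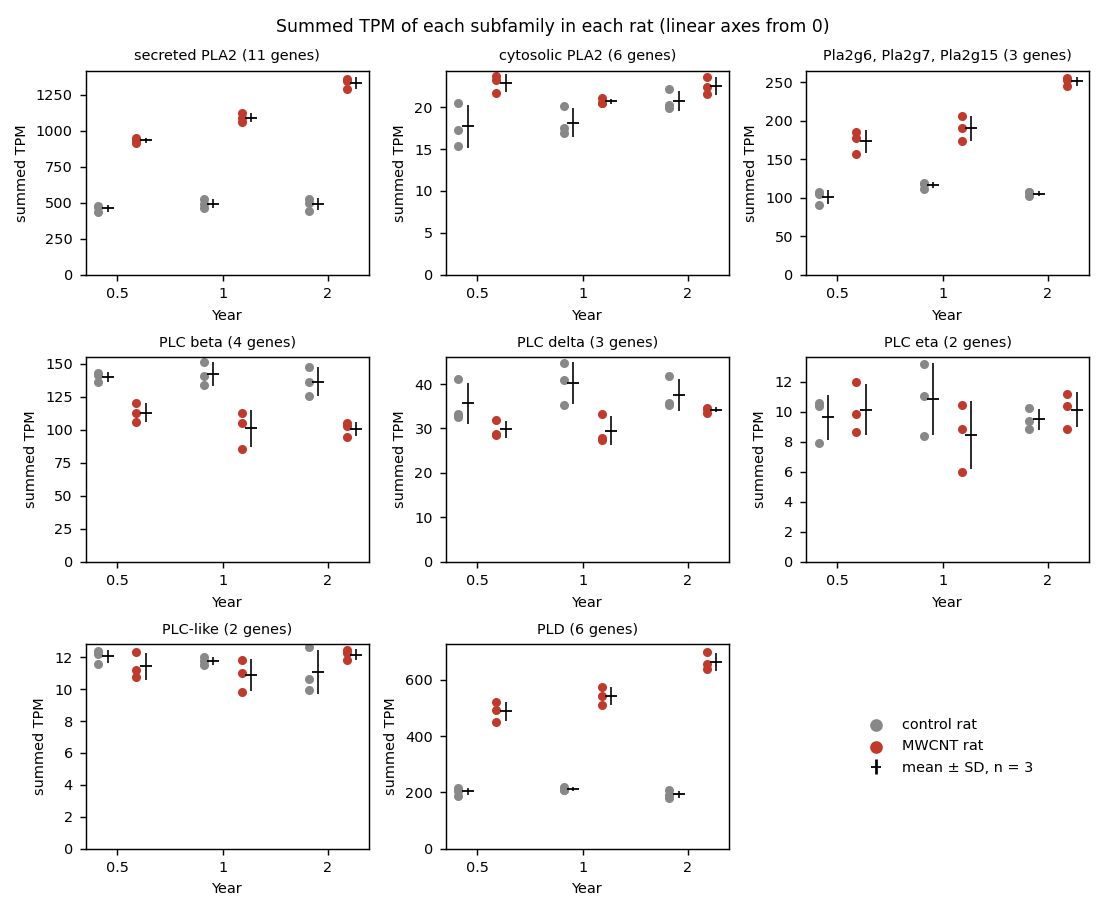
Summed TPM (y axes, linear from 0) of each subfamily with more than 1 gene in each rat by time point (x axes, Year 0.5, 1 and 2), grey for control and red for MWCNT-treated, with the mean ± SD (n = 3). The secreted phospholipases A2, the set of Pla2g6, Pla2g7 and Pla2g15 and the phospholipases D lie above the controls at every year and PLC beta below. PLC delta also lies below on this scale, but at Year 2 its sum of TMM-adjusted CPM was 1.04 times the control.

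The 4 phospholipase D genes that were tested were all higher at every year at FDR alone, and Pld3 and Pld1 passed the fold limit. Pld3 (Rnor_6.0 chr1:84339261-84353725, minus strand) was the most abundant. Pld3 measured 119.8, 133 and 131 TPM in the control rats of Year 0.5, 139, 128 and 123 TPM in those of Year 1 and 101, 104 and 121 TPM in those of Year 2. Pld3 in the MWCNT-treated rats was at 388, 401 and 341 TPM at Year 0.5, 434, 462 and 401 TPM at Year 1 and 571, 528 and 517 TPM at Year 2. Treated rats lay far above controls at each year, and the 3 treated rats of Year 2 lay above all treated rats of the earlier years. Pld3 had log2 fold changes of 1.70 ± 0.086 at Year 0.5, 1.97 ± 0.11 at Year 1 and 2.53 ± 0.092 at Year 2 (± SE), with edgeR FDRs of 5.4e-06, 3.98e-06 and 2.82e-07. Among the 40 genes ordered by mean TPM, Pld3 stood at rank 4 in the control groups and at rank 2 in the treated groups.

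Pld1, the regulated enzyme that makes phosphatidic acid, rose less. Pld1 measured 12.3, 13.7 and 12.1 TPM in the control rats of Year 0.5, 11.7, 12.9 and 12.7 TPM in those of Year 1 and 8.53, 13.2 and 12.3 TPM in those of Year 2. Pld1 in the MWCNT-treated rats was at 21.4, 23.2 and 20.9 TPM at Year 0.5, 22.9, 19.6 and 19.01 TPM at Year 1 and 24.9, 21.9 and 25.4 TPM at Year 2. The groups were apart at every year. Pld1 had log2 fold changes of 0.93 ± 0.083 at Year 0.5, 0.95 ± 0.089 at Year 1 and 1.31 ± 0.13 at Year 2 (± SE), with edgeR FDRs of 7e-05, 7.19e-05 and 5.7e-05. The fold limit at Year 1 was missed by little, at 1.02 without MWCNT-treated rat 3. Pld4 had log2 fold changes of 0.87 ± 0.13, 0.82 ± 0.12 and 0.84 ± 0.094, and Pld2 had 0.36 ± 0.10, 0.33 ± 0.11 and 0.48 ± 0.074 (SE). Pld5 and Pld6 were not tested at any year. The summed level of the 6 genes went from 203 ± 14.0 TPM (SD, n = 3) in control to 488 ± 34.7 TPM in treated rats at Year 0.5, from 212 ± 6.86 to 544 ± 31.8 TPM at Year 1 and from 192 ± 13.3 to 665 ± 32.0 TPM at Year 2. These are 2.41, 2.57 and 3.46 times the control, and Pld3 was 56.5% ± 1.61 of the sum in the control rats of Year 2 and 81.1% ± 0.47 in the treated ones.

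Phospholipase genes lying near each other on a chromosome did not move together everywhere. Pla2g2c, Pla2g2f, Pla2g2d, Pla2g5, Pla2g2a and Pla2g2e lie in this order on chromosome 5 (Rnor_6.0 chr5:157165341-157333039), and at Year 2 Pla2g2f fell and Pla2g2a rose within it. Pla2g4b, Pla2g4e, Pla2g4d and Pla2g4f lie within chr3:111825162-112084144, where at Year 2 Pla2g4b was lower at FDR alone and Pla2g4e and Pla2g4f were upregulated. Plcb1 and Plcb4 lie on chromosome 3 with a gap of 337 kb, and both were lower at every year at FDR alone. Plcb2 overlaps an unnamed gene model with 0 counts in every rat, and no other called gene overlapped a gene in the tables.

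The effect of MWCNT differed between Year 2 and Year 0.5 for 2 of the 31 genes tested for it, where 1.31% of 14843 genes did (a model of all 18 rats, edgeR FDR under 0.05 with no fold limit). Pld3 had an effect larger at Year 2 by 0.83 ± 0.14 (SE), edgeR FDR = 0.0077. Pla2g2a had one larger by 1.58 ± 0.37 (SE), edgeR FDR = 0.0483. The second result was not firm: leaving out 1 rat gave FDRs of up to 0.143, and 9 of the 12 rats of these years each took it past 0.05 when left out. With only the 12 rats compared its FDR was 0.0942. The other genes did not pass: the difference was 1.06 ± 0.29 (SE), edgeR FDR = 0.0842 for Pla2g7, 0.49 ± 0.13 (SE), edgeR FDR = 0.0784 for Pla2g1b, -1.01 ± 0.52 (SE), edgeR FDR = 0.406 for Pla2g2f, -0.56 ± 0.23 (SE), edgeR FDR = 0.29 for Plce1 and -0.49 ± 0.18 (SE), edgeR FDR = 0.22 for Plcb4. Pla2g7 passed without MWCNT-treated rat 2 of Year 0.5 (FDR = 0.0422) and under DESeq2 (FDR = 0.013). Pla2g1b passed with only the 12 rats compared (FDR = 0.0391) and under DESeq2 (FDR = 0.0194). Thus genes called at Year 2 alone, such as Plcb4, were not shown to respond differently from Year 0.5.

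**Figure D4:**
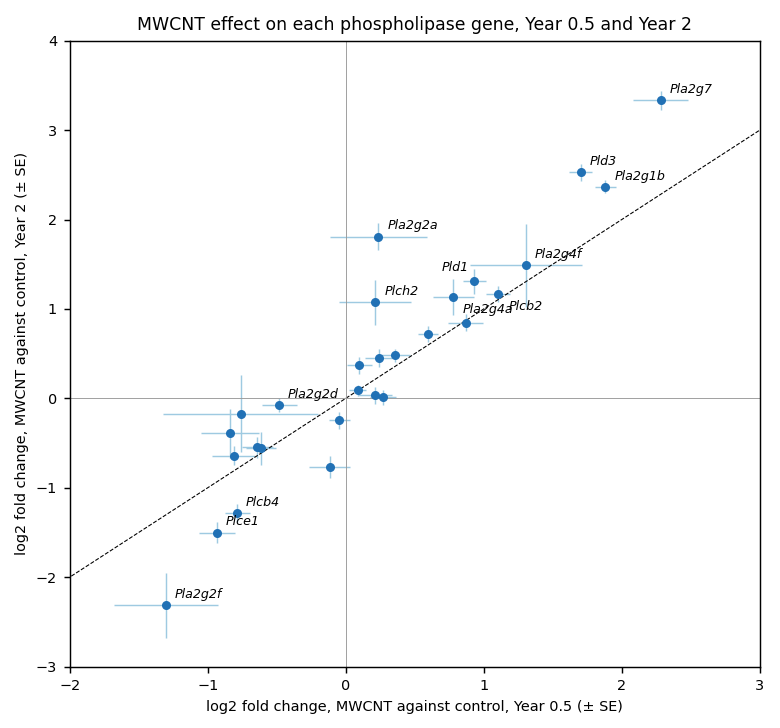
Log2 fold change (MWCNT-treated against control, ± SE from edgeR) of each phospholipase gene at Year 0.5 (x axis) and Year 2 (y axis), from separate rats, with equal effects on the dashed line. Pla2g4e is left out because its control rats of Year 0.5 had no reads. Pld3 (1.70 and 2.53) and Pla2g2a (0.24 and 1.81) lie above the line and were the 2 genes whose difference between the years passed the FDR.

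Within the control rats, Year 2 against Year 0.5 gave 1 call, Pla2g2f, with a log2 change of 1.71 ± 0.33 (SE, edgeR FDR = 0.00715), where 0.633% of 14843 genes were called (0.451% up). In MWCNT-treated rats the same gene changed by 0.70 ± 0.39 (FDR = 0.261). The treated rats gave 2 calls, where 2.34% of genes were called (1.44% up): Pla2g2a rose by 1.79 ± 0.26 (FDR = 0.000252) and Pla2g7 by 1.20 ± 0.19 (FDR = 0.000505) on the log2 scale. Without MWCNT-treated rat 3 of Year 0.5, the lowest for Pla2g7, that gene's change was 0.998. At FDR alone 3 genes rose in controls (Pla2g2f, Pla2g4b and Plcb2), where 6.65% of all genes passed and 2.65% rose. In treated rats 7 rose and 2, Plcb4 and Plce1, fell, where 13.5% passed, 6.65% up and 6.87% down. Time and age cannot be told apart here.

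The genes that work with these enzymes were taken from 4 lists. Of 18 tested genes for releasing and using arachidonic acid, 3 were upregulated and 1 was downregulated at Year 2, where 8.17% and 8.22% of all genes were, with a median log2 fold change of 0.42 (all genes -0.011). They were Ptges (prostaglandin E synthase, 2.29 ± 0.35), Tbxas1 (thromboxane synthase, 2.23 ± 0.13) and Alox12 (1.58 ± 0.15), and the lipoxygenase Alox15 (-1.27 ± 0.25). At Years 0.5 and 1 the list had 2 upregulated with 2 and 1 downregulated, where 6.07% and 6.13% of all genes were upregulated and 3.03% and 4.09% downregulated.

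Lysophospholipid and platelet-activating factor genes gave 4 upregulated and 2 downregulated of 28 tested at Year 2, against the same shares of 8.17% and 8.22% of all genes, with a median of 0.18 (all genes -0.011). The largest rises were Ptafr (the platelet-activating factor receptor, 2.28 ± 0.081), Plbd1 (1.87 ± 0.11) and Lpcat2 (which makes platelet-activating factor, 1.10 ± 0.080), and the falls were Lpar3 (a lysophosphatidic acid receptor, -1.71 ± 0.14) and Mboat2 (-1.01 ± 0.16). Years 0.5 and 1 each had 3 upregulated and 1 downregulated, of 27 and 26 tested. Of all genes, 6.07% and 6.13% were upregulated and 3.03% and 4.09% downregulated at these years.

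The list of phospholipase C partners held the G proteins, calcium channels and kinases around it, and also Plcg2, itself a phospholipase C. It gave 2 upregulated and 5 downregulated of 35 tested at Year 2, beside 8.17% and 8.22% of all genes. Its median was -0.053 (all genes -0.011). Plcg2 was not called, at 0.25 ± 0.076, 0.16 ± 0.079 and 0.51 ± 0.19 at Years 0.5, 1 and 2 (log2, ± SE). Its edgeR FDRs were 0.0271, 0.146 and 0.0465. Pip5k1b (which makes the substrate, 1.35 ± 0.12) and Gna15 (a G protein subunit, 1.01 ± 0.10) were upregulated, and Rasgrp2 (-1.40 ± 0.20), Dgkb (-1.21 ± 0.33) and Prkce (-1.17 ± 0.16) fell the most. At Year 0.5 2 were upregulated and at Year 1 1, with 0 downregulated at either. The shares of all genes were 6.07% and 6.13% upregulated and 3.03% and 4.09% downregulated. Of 20 genes around phospholipase D and phosphatidic acid, 1 was downregulated (Plpp3, -1.31 ± 0.077) and 0 were upregulated at Year 2. Of all genes, 8.22% were downregulated and 8.17% upregulated at that year. The median of the list was 0.22 (all genes -0.011). At Years 0.5 and 1 the list had 0 calls, where 9.1% and 10.2% of all genes were called.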

How the data were processed

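The authors mapped the reads to the rat genome (builds Rnor_6.0 and rn6 per the labels) in CLC Genomics Workbench 22.0.2 and deposited counts and TPM per gene and rat. Treatment of multi-mapping reads and strand is not given in the sources used here. Columns of the authors' own comparisons, and 36 per-rat columns of RPKM and CPM, were not used. Counts of each year's 6 rats were tested with edgeR 4.0.16 (quasi-likelihood F test, TMM factors, filterByExpr with a minimum count of 10 and total of 15, Benjamini-Hochberg FDR over all genes tested); 1 model of all 18 rats gave the differences between years. SE is the log2 fold change divided by the root of F. TPM, which the authors computed, gave levels and sums only. The test was checked on simulated counts with large planted changes and the same spread for all genes. That check does not cover changes near the fold limit or genes with a wider spread. Alternatives used DESeq2 1.42.0, limma 3.58.1 on log2(TPM + 1) and log2(TPM + 0.1), other scalings and filters, a replicate block and leaving out each rat. Replicates were separate rats, and only 3 a group. Values in every rat are given for each gene called at any year or with a difference between years, and for the most abundant gene of each subfamily. The genes of the 4 lists named with values are up to 3 rises and 3 falls at Year 2. Members and lists were chosen with earlier results of these data known. Upstream sequences are from RefSeq (GRCr8), matched by symbol for 34 of 40 genes.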

Additional observations from a re-analysis of the deposited data

Results flagged for a closer look

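The treatment effect differed between Year 2 and Year 0.5, tested as an interaction in edgeR, for 2 genes. Pld3 had an effect larger at Year 2 by 0.833 on the log2 scale (FDR = 0.0077), with all 3 treated rats above all 3 controls at both years. Pla2g2a had one larger by 1.58 (FDR = 0.0483), with overlapping groups at Year 0.5 and 3 of 3 treated rats above the controls at Year 2. The result for Pla2g2a did not pass with library size alone (FDR = 0.0664), upper quartile factors (0.052), limma (0.0895 and 0.106 at the 2 pseudocounts) or only the 12 rats compared (0.0942), nor in 9 of the 12 fits that left out 1 rat (up to 0.143).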

How the results depend on the processing

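No gene changed direction, under the alternatives run, in a comparison in which it was called. Values near no change did cross it: the sums of PLC delta at Year 2 and of the PLC-like genes at Years 0.5 and 1 (given below), the PLC eta sum at Year 0.5 (1.055, and 0.960 without 1 rat), and uncalled genes such as Pla2g2a at Year 0.5 (0.24, and -0.056 without 1 rat) and Plcg1 at Years 1 and 2. At FDR alone the counts were 20, 18 and 22 genes at Years 0.5, 1 and 2, 3 for time in control and 9 for time in treated rats. With at least 10 counts in every rat Year 0.5 gave 4 calls and time in control rats 0, since Pla2g2f was then not tested, and limma on log2(TPM + 1) gave 3 at Year 0.5. The difference between years gave 1 gene with library size alone, with upper quartile factors and with limma at either pseudocount, 4 with DESeq2, and 1 to 2 leaving out 1 rat. Time in treated rats gave 1 to 2 leaving out 1 rat. Summed TMM-adjusted CPM weight a gene by its length and, unlike TPM, carry the TMM scaling. They gave folds of 1.48, 1.70 and 2.05 for the secreted phospholipases A2 and 1.35 and 1.26 (Years 1 and 2) for the cytosolic ones. The folds were 2.28 (Year 2) for Pla2g6, Pla2g7 and Pla2g15 and 0.86 and 1.04 (Years 1 and 2) for PLC delta. For the PLC-like genes they were 1.04, 1.08 and 1.26, and for the phospholipases D 2.89 and 3.79 (Years 1 and 2). The replicate block left 6, 6 and 12 calls at the 3 years, 2 genes for the difference between years, and 1 and 2 for time. Pla2g4f lost its call under the block at both years (FDR = 0.0577 and 0.0549, edgeR). Replicate numbers did not pair the rats: deviations of same-numbered rats correlated at a mean of 0.007 (-0.147 to 0.107, 9 pairs). Of the single-gene results, 715 of 750 kept their call when a rat was left out and 907 of 944 under the other settings. Depth limits the genes not tested, whose highest count was 19.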
